A study of Mus musculus with 12 samples.

Results

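Hearts and kidneys of wild type mice were compared on 6 of the 12 arrays of a study of mice that lack mENT1, the equilibrative nucleoside transporter 1. The 6 arrays were taken by their labels: wild type heart a, b and c and wild type kidney a, b and c, each hybridised with Cy3-labelled cRNA made from total RNA of the organ. All of these mice were wild type on the FVB/N background, no agent or treatment is named for them, and age and sex are not given in the sources used here. The other 6 arrays hold heart and kidney of the mENT1 knockout on the same background. They serve here as a second set of the same tissues and, near the end, for a comparison of the tissue difference between genotypes. The submitters' design names 3 wild type mice for the heart and kidney RNA, but no label says that one letter marks a single mouse, so the p-values measure the spread between these samples.

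The heart pumps by contracting sarcomeres, in which myosin thick filaments pull on actin thin filaments whenever calcium leaves the sarcoplasmic reticulum, and it draws its energy mostly from fatty acids burnt in mitochondria. The kidney filters blood in the glomerulus and then reclaims salts, sugars, amino acids and water along a tubule of distinct epithelial segments, the proximal tubule, the thick ascending limb, the distal tubule and the collecting duct. It also makes glucose and ammonia, activates vitamin D, and secretes renin and organic ions. In whole organ RNA, fewer cells of a type and less RNA per cell cannot be told apart.

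Each value is the log2 of a probe's processed intensity minus the 75th percentile of its array, so 0 is that percentile, and a difference is heart minus kidney. The 75th percentile lay between 464.5 and 843.5 intensity units on the 6 arrays, 60.64% to 67.65% of spots lay well above background, and each array had 157 to 331 saturated spots. Values correlated over genes at 0.9875 to 0.9932 between hearts, 0.9859 to 0.9916 between kidneys and 0.738 to 0.7576 between the tissues. Wild type heart a stood apart in some genes: of 79 genes whose SD over the hearts was 2 or more, 73 were highest on heart a, and 30 of the 79 passed the test below. All 3 wild type hearts lay on a slide of their own, so among wild type arrays slide and tissue cannot be told apart. Values with the knockout arrays on shared slides are given where they change a count by over 1.5 times. With genotype and slide as terms over all 12 arrays, the difference comes from knockout hearts and wild type kidney c on slide 3. It is corrected by the knockout effect in kidneys on slide 2, taken as equal in both organs. No wild type heart enters that difference or the comparison on slide 3 alone.

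Of 17984 genes tested with limma, 5804 were higher in heart (32.3%) and 5872 higher in kidney (32.7%) at a Benjamini-Hochberg adjusted p under 0.05, 64.9% in either direction. A fitted difference of at least 8-fold was reached by 1113 genes in heart (6.19%) and 1343 in kidney (7.47%), and one of at least 32-fold by 332 and 645 genes. The median difference over all genes was -0.005, and the 3 values of one tissue lay wholly apart from those of the other for 71.9% of genes. With 3 arrays against 3, an exact permutation test of a single gene could not go below 0.1. The shares of genes called are large, so each group below is read beside them. A gene measured in only 1 tissue entered the test through that tissue and had to differ, so counts and medians over lists are descriptions, taken over the members tested. Where a gene was not well above background on any array of a tissue, or was saturated on all 3 arrays of the brighter one, its fold is a lower bound: the mean of the bright tissue over the lowest signal well above background on each dim array, or over the gene's own value where that is higher. Counts at 8-fold and 32-fold, here and below, use fitted differences. They include genes whose bound is smaller, such as Glis3 at 4.35-fold and Agtr1b at 2.69-fold in kidney.

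The tissue labels were checked first with defining genes. Myh6, the main myosin heavy chain of the adult mouse heart, read 6.72, 6.38 and 6.99 on hearts a, b and c and -7.22, -7.93 and -7.93 on kidneys a, b and c. It was saturated on every heart array and not well above background on any kidney array, and was at least 10093-fold higher in heart. Tnnt2, the cardiac troponin T, read 6.57, 6.24 and 6.73 in heart against -3.92, -4.15 and -3.65 in kidney and was at least 1366-fold higher in heart. Umod, the thick limb protein uromodulin, read -8.73, -9.11 and -9.06 in heart and 6.38, 6.98 and 6.30 in kidney. It was not well above background on any heart array and was at least 10428-fold higher in kidney. Slc34a1, the proximal tubule phosphate carrier, read -8.43, -6.38 and -6.74 in heart, above background on 1 array, and 6.70, 7.29 and 6.58 in kidney, at least 10970-fold higher there. The fitted differences of these 4 genes were 14.39 ± 0.25, 10.42 ± 0.19, -15.52 ± 0.22 and -14.04 ± 0.52 (SE), with adjusted p of 3.62e-08, 4.35e-08, 2.47e-08 and 6.89e-07, and that of Slc34a1 was -13.42 without heart a. The 8 listed heart markers were all higher in heart and the 8 listed kidney markers all higher in kidney, each at least 8-fold. The plot of 11 marker and regulator genes on each array shows no overlap of the tissues.

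**Figure D1:**
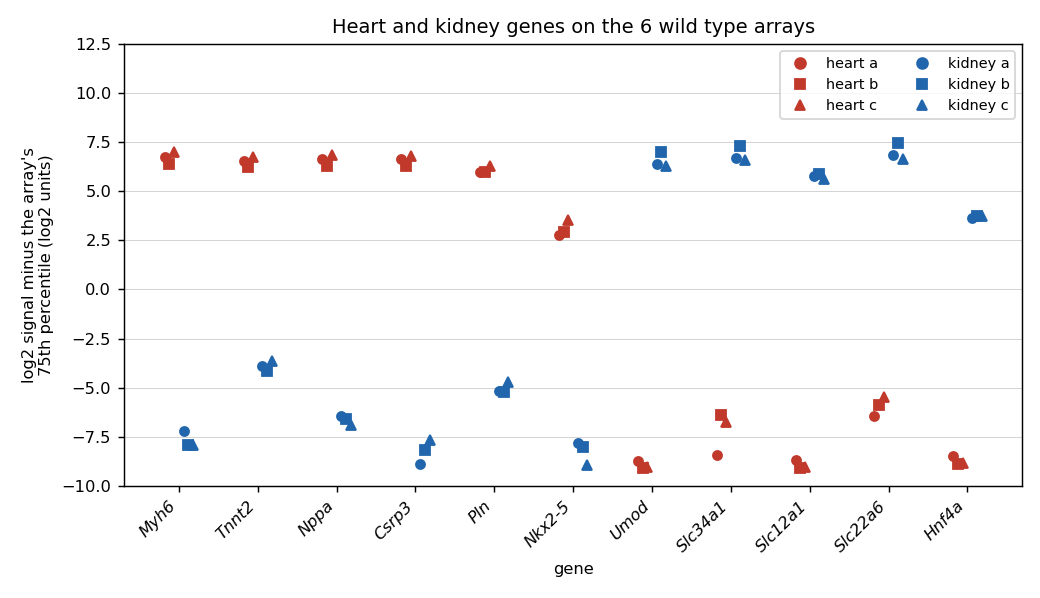
Log2 intensity relative to each array's 75th percentile (vertical axis) for 11 genes, 1 point per array, wild type hearts and kidneys in separate colours. Myh6 sits between 6.38 and 6.99 in heart and below -7 in kidney, and Umod between 6.30 and 6.98 in kidney and below -8 in heart.

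The genes of the contractile apparatus were higher in heart throughout the genes tested. Of the 12 thick filament genes tested, of 13 listed, all were at least 8-fold higher in heart, with a median difference of 10.20 (9.29 with bounds in place of fitted values). Myl2, the ventricular regulatory light chain, read 6.76, 6.38 and 6.88 in heart and -7.06, -6.12 and -6.69 in kidney, at least 9422-fold higher in heart. Mybpc3, the cardiac myosin-binding protein C, read 6.61, 6.28 and 6.87 and -3.27, -2.59 and -3.09, at least 759-fold higher, and was above background on all kidney arrays. For both genes each heart value lay more than 8 log2 units above each kidney value. Of 23 thin filament and Z disc genes, 23 were higher in heart and 20 of them at least 8-fold, with a median of 8.56 (8.20 with bounds). Csrp3, a Z disc LIM protein that senses stretch, read 6.63, 6.28 and 6.77 against -8.88, -8.18 and -7.65, at least 9200-fold higher. Myoz2, a calsarcin that ties calcineurin to the Z disc, read 5.73, 5.99 and 6.33 against -7.11, -7.61 and -7.22, at least 6290-fold higher. Actn2, the sarcomeric alpha-actinin, was 2892-fold higher and was above background on 2 of 3 kidney arrays. Both filament lists had 0 members higher in kidney.

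Promoters of 3 genes at least 8-fold higher in heart are shown because they hold a match to the known motif of the muscle factor MEF2 or SRF. Each run is the 250 bases before the RefSeq start of the gene in GRCm38.p6, written toward the start, with the motif in capitals: a MEF2 match 23 bases before the start in Myoz2 and 80 bases before it in Mybpc3, and a match to the CArG box that SRF binds, 37 bases before it in Actc1, cardiac actin, which was at least 902-fold higher in heart. The genes shown were chosen after their values were seen. They come from a search of the 40 largest heart genes with a promoter, in which only promoters holding a match were kept. The windows are chr3:123034988-123035237 on the minus strand for Myoz2, chr2:91117894-91118143 on the plus strand for Mybpc3 and chr2:114052876-114053125 on the minus strand for Actc1.
Myoz2: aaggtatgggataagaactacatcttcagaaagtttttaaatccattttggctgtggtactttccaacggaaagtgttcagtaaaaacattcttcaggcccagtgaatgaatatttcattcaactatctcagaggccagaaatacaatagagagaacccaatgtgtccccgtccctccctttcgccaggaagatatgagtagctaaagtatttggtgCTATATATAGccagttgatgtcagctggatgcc
Mybpc3: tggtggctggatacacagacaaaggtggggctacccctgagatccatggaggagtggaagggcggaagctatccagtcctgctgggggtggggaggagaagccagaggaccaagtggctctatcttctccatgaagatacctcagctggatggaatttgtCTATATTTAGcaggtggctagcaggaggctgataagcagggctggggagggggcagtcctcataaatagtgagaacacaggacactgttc
Actc1: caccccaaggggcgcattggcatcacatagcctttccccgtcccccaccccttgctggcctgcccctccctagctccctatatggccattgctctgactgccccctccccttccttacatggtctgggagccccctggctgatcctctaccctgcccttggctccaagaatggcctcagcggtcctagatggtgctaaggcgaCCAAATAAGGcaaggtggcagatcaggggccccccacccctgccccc
Over promoters with a single start, searched on both strands, the MEF2 motif was in 17 of 585 genes at least 8-fold higher in heart (2.91%), in 0 of 732 at least 8-fold higher in kidney, and in 42 of 9691 genes tested (0.433%) and 115 of all 22862 promoters (0.503%). The CArG box was in 1.88% of the heart set, 1.37% of the kidney set, 1.20% of genes tested and 1.38% of all promoters. The motif AGATAAG of GATA proteins was in 4.62% of the heart set, 2.32% of the kidney set, 1.95% of genes tested and 2.84% of all promoters. These shares are descriptions of letters in a short window, and 0 of the 9691 held overlapping matches of different motifs.

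Most calcium handling genes were higher in heart, and a few were higher in kidney. Of 23 genes tested, 17 were higher in heart, 11 of them at least 8-fold, 3 higher in kidney and 3 not called, with a median of 2.27. Sln, the sarcolipin peptide that inhibits the calcium pump, read 6.25, 5.995 and 6.69 in heart against -8.96, -8.25 and -8.56 in kidney and was at least 7716-fold higher. Pln, phospholamban, the other pump inhibitor, read 5.99, 5.99 and 6.30 against -5.15, -5.21 and -4.69, a difference of 11.11 ± 0.19 and 2213-fold. Atp2a2, the calcium pump SERCA2 that these peptides act on, read 6.19, 6.08 and 6.61 against 0.85, 1.08 and 0.61 on its brightest probe. That probe was 43.5-fold higher in heart and saturated on 2 of 3 hearts, but of its 4 probes only 1 besides the brightest shared that sign. The pump, which most cells carry in their endoplasmic reticulum, was thus measured in both tissues, whereas sarcolipin was above background only in heart. Within the reticulum of the junction, Casq2, cardiac calsequestrin, was 1604-fold higher, Hrc, a histidine-rich calcium binder, 2406-fold, and Trdn, triadin, at least 1537-fold. Slc8a1, the sodium-calcium exchanger, was 4.84-fold higher in heart. The 3 genes higher in kidney were Calb1, the distal tubule calcium buffer calbindin, by at least 1370-fold, Trpv5, the channel that takes up calcium from the distal tubule lumen, by at least 16.9-fold, and Itpr1, an inositol trisphosphate receptor. Itpr1 read 2.74, 2.53 and 2.48 in heart and 4.80, 5.19 and 4.48 in kidney, a difference of -2.24 ± 0.20 (SE, adjusted p = 5.52e-05).

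Ion channels and junctions of the myocyte were nearly all higher in heart. Of 25 tested, 24 were higher in heart, 16 at least 8-fold, with a median of 4.26. Kcnd2 and Kcnip2, the channel and the auxiliary subunit of the fast transient outward potassium current, were 212-fold and 126-fold higher, each above background on 1 kidney array. Gja1, connexin 43 of the gap junctions, was 33.4-fold higher, and Cdh2, N-cadherin of the intercalated disc, 46.8-fold. Hcn4, the pacemaker channel of the sinus node, read -5.39, -4.14 and -3.88 in heart and -5.47, -4.73 and -5.08 in kidney and was not called, at an adjusted p of 0.215; without heart a its difference was 1.08 and passed the test.

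Among natriuretic peptides and hormones of the heart, 9 of 10 genes were higher in heart and 3 at least 8-fold, with a median of 2.02. Nppa, the atrial natriuretic peptide, read 6.62, 6.30 and 6.87 in heart, saturated, and -6.43, -6.59 and -6.89 in kidney, at least 8642-fold higher. Nppb, the brain natriuretic peptide, read 6.08, 6.23 and 6.99 against -5.25, -5.12 and -5.41, 3305-fold higher. Corin, the protease that cuts the precursor of the atrial peptide, was 60.1-fold higher, and Npr3, the receptor that clears both peptides, 5.83-fold. The fold of the clearance receptor lay far below those of the peptides. Gdf15, a stress cytokine, was not called and read 0.91, 1.56 and 1.55 in heart and 1.26, 1.56 and 1.60 in kidney.

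Transcription factors of each organ's development differed in the direction of the organ, with some exceptions. Of 17 cardiac factors tested, 15 were higher in heart, 11 at least 8-fold, with a median of 4.34. Nkx2-5, the homeobox factor of the myocardium, read 2.78, 2.92 and 3.52 in heart and -7.83, -8.03 and -8.94 in kidney, below background there, and was at least 818-fold higher. Tbx5 was at least 124-fold higher, Hand2 at least 71.9-fold, and Tbx20 222-fold with 1 kidney array above background, its fitted difference going from 7.79 to 8.48 without kidney a. Gata4 was 9.32-fold higher on its brightest probe, but its other probes did not share that sign. Of the factors higher in kidney, Esrrg, an orphan receptor of energy metabolism, was 2.36-fold higher.

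Of 20 kidney factors tested, of 22 listed, 17 were higher in kidney, 12 at least 8-fold, with a median of -3.99 (-3.49 with bounds). Hnf4a, a nuclear receptor of the proximal tubule, read -8.49, -8.90 and -8.85 in heart and 3.65, 3.76 and 3.76 in kidney on its brightest of 3 probes, at least 1463-fold higher; that probe was below background in heart, but another of its probes was above background on at least 1 heart array. Tfcp2l1, a factor of the collecting duct, was 105-fold higher, and Pax8, which starts nephron formation, at least 78.9-fold. Pax2, its close relative, was not called: it read -6.49, -6.25 and -6.04 in heart and -5.90, -5.74 and -5.88 in kidney at an adjusted p of 0.051, and passed at -0.53 without heart c. Higher in heart were Wt1, the factor of podocytes and also of the epicardium, by 2.58-fold, and Six2, of nephron progenitors, by at least 1.88-fold. The 3 factors Nkx2-5, Tbx5 and Hand2 were above background in heart only.

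The Hox genes, whose order along each chromosome cluster follows the body axis from head to tail, were read by their place in the cluster. Of 26 tested, of 39 listed, 22 were higher in kidney, 15 at least 8-fold, 2 higher in heart and 2 not called, with a median of -3.82. Over groups 1 to 5, the head end, the median difference of 11 genes was -1.17, over groups 6 to 8 that of 7 genes was -5.64, and over groups 9 to 11 that of 8 genes was -6.81 (-5.70 with bounds). Over the 26 genes, Spearman's rho of paralog group with the difference was -0.84, or -0.78 with bounds, a description of genes that share the same 6 arrays. Genes below background in heart entered the test through kidney and had to be lower in heart, so the medians and rho rest in part on that filter. Hoxa9 and Hoxd9, the members of groups 9 to 11 above background on all hearts, differed by -3.12 and -3.92. Hoxa10 read -8.40, -8.82 and -8.72 in heart, below background, and 1.28, 1.31 and 1.15 in kidney, at least 263-fold higher. Hoxc9 read -8.27, -8.37 and -9.03 and 1.53, 1.64 and 1.35, at least 315-fold higher. Hoxb7 was above background in both tissues at -2.74, -2.95 and -3.32 in heart and 3.02, 3.47 and 2.83 in kidney, 68.9-fold higher. Of the 8 genes of groups 9 to 11, 6 were below background on every heart array. The 2 genes higher in heart lay near the head end: Hoxb3, at -2.79, -2.50 and -2.000 in heart and -4.45, -4.99 and -3.998 in kidney, by 4.15-fold, and Hoxc4 by 1.44-fold, whose call was lost when an array was left out. Hoxa2 and Hoxa4 were not called, and Hoxa4 passed at -1.89 without heart a; Hoxa5 moved from -2.97 to -3.66 without that array. Hoxb8 and Hoxc6, each above background on 1 heart array, shifted with the heart left out, Hoxb8 from -5.75 without heart b to -7.43 without heart c and Hoxc6 from -5.91 without heart b to -7.63 without heart a.

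**Figure D2:**
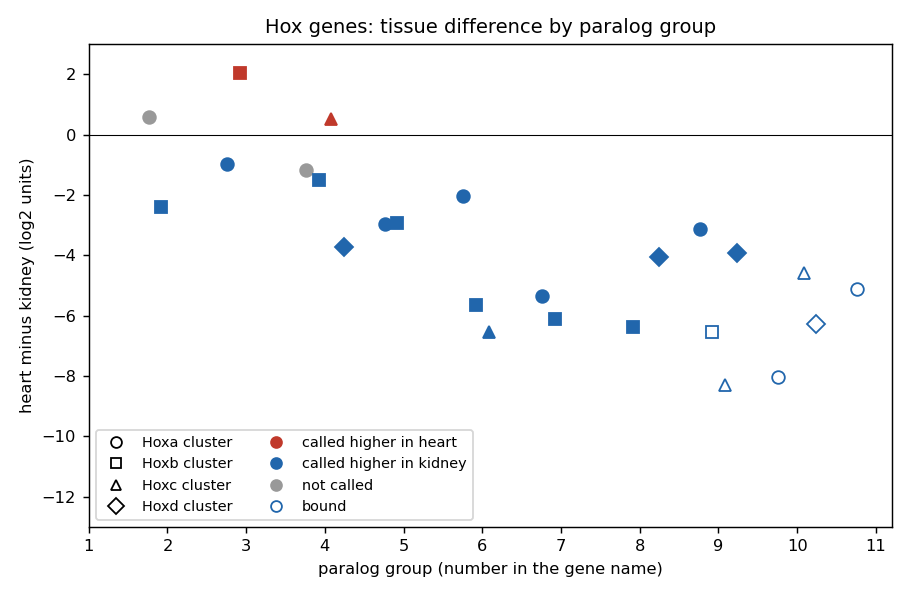
Heart minus kidney difference on the log2 scale (vertical axis) of 25 of the 26 Hox genes tested by paralog group (horizontal axis, 1 is the head end), with open symbols for bounds. The 8 genes of groups 9 to 11 lie around a median of -5.70 with bounds, and Hoxb3, Hoxc4 and the uncalled Hoxa2 lie above 0.

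Along the nephron, the proximal tubule gave the largest set of kidney genes. Of 32 reabsorption genes tested, of 33 listed, 32 were higher in kidney and 29 at least 8-fold, with a median of -10.23 (-9.55 with bounds). Slc3a1, the heavy subunit of the cystine carrier, read -7.20, -6.71 and -6.30 in heart, above background on 2 arrays, and 5.79, 5.99 and 5.52 in kidney, 5806-fold higher. Slc5a2, the glucose carrier SGLT2, was 2589-fold higher and above background on all hearts. Cltrn, collectrin, which brings amino acid carriers to the brush border, was at least 6759-fold higher, and Slc5a8, a lactate carrier, at least 3870-fold. Lrp2 and Cubn, the receptors megalin and cubilin that take up filtered proteins, were at least 253-fold and 404-fold higher. Aqp1, the water channel that endothelium also carries, read 4.37, 4.17 and 4.39 in heart and 5.34, 5.54 and 5.40 in kidney and was 2.16-fold higher, a small difference beside the others of its list.

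Carriers of organic ions and drugs were higher in kidney in 21 of 25 cases, 19 at least 8-fold, with a median of -5.45, and higher in heart in 3. Slc22a6, the organic anion transporter 1 that takes drugs from blood, read -6.44, -5.86 and -5.46 in heart and 6.84, 7.44 and 6.66 in kidney, at least 7656-fold higher and saturated there. Slc22a2, an organic cation transporter, was 2061-fold higher, Slc17a1, an apical phosphate and urate carrier, at least 2918-fold, and Slco1a6, an organic anion carrier, at least 5289-fold. In contrast Abcb1a, the P-glycoprotein of blood vessel barriers, read -2.46, -2.16 and -2.46 in heart and -5.09, -4.55 and -4.47 in kidney, 5.07-fold higher in heart, and its copy Abcb1b was 2.88-fold higher in heart. Slco1a4, an organic anion carrier, was 1.66-fold higher in heart, but its difference was -0.10 on the arrays labelled knockout.

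Hormone, vitamin D and peptide processing genes were higher in kidney for 18 of 20, 13 at least 8-fold, with a median of -3.40. Kl, the FGF23 co-receptor klotho, read -6.15, -6.31 and -7.84 in heart, above background on 2 arrays, and 5.04, 5.14 and 4.92 in kidney, 3569-fold higher. Ren1, renin, read -5.18, -6.78 and -6.58 in heart, above background on 1 array, and 3.47, 2.66 and 2.73 in kidney, 562-fold higher. Vdr, the vitamin D receptor, was 221-fold higher. Of the enzymes that act on vitamin D, the activating Cyp27b1 was 3.44-fold higher and the inactivating Cyp24a1 at least 237-fold. Mep1a, a brush border protease, was at least 2237-fold higher, and Pth1r, the parathyroid hormone receptor, 62-fold. The 1 gene higher in heart was Fgfr1, by 1.64-fold, a call lost when an array was left out.

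Thick limb and distal tubule genes were higher in kidney for 23 of 26, each of the 23 at least 8-fold, with a median of -6.56 (-5.78 with bounds). Slc12a1, the furosemide-sensitive cotransporter NKCC2, read -8.69, -9.08 and -9.04 in heart, below background, and 5.78, 5.90 and 5.63 in kidney, a difference of -14.70 ± 0.16 (SE, adjusted p = 2.44e-08) and at least 6037-fold. Kcnj1, the ROMK channel that recycles potassium for it, was at least 4178-fold higher. Slc12a3, the thiazide-sensitive cotransporter of the next segment, read -8.61, -9.003 and -8.87 and 2.41, 1.82 and 1.97, at least 465-fold higher. The 2 members higher in heart were Slc8a1, given above, and Wnk1, a kinase that regulates these cotransporters, by 1.64-fold. Klk1, tissue kallikrein, was 1553-fold higher, and Egf, whose precursor the distal tubule makes, 239-fold. Pvalb, parvalbumin, which marks the early distal tubule and also fast skeletal muscle, read -0.41, -6.24 and -6.70 in heart and 0.42, 1.03 and 0.31 in kidney; heart a alone came near the kidneys. Its difference of -5.04 ± 1.55 (adjusted p = 0.0239) was -7.06 without heart a and lost its call without heart b, heart c, kidney a or kidney b.

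Collecting duct genes were higher in kidney for 29 of 32, 23 at least 8-fold, with a median of -6.27 (-5.59 with bounds). Aqp2, the vasopressin-regulated water channel of principal cells, read -2.06, -2.44 and -2.11 in heart, above background on every array, and 4.07, 3.34 and 3.82 in kidney, 61.7-fold higher. Its upstream receptor Avpr2 was below background in heart and at least 192-fold higher in kidney. The epithelial sodium channel subunits Scnn1b and Scnn1g were at least 60.8-fold and at least 205-fold higher. In intercalated cells, Slc26a4, the chloride-bicarbonate exchanger pendrin, was at least 1408-fold higher, Atp6v1g3, a proton pump subunit, at least 499-fold, and Rhcg, an ammonia channel, at least 733-fold. Krt19, an epithelial keratin, was the 1 member higher in heart, by 6.55-fold. On slide 3, which holds knockout hearts and wild type kidney c, 17 of the list's genes were called higher in kidney.

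Genes of epithelial junctions and polarity, found in every tubule segment, were higher in kidney for 26 of 28, 22 at least 8-fold, with a median of -4.80. Cdh16, the kidney-specific cadherin, read -4.48, -3.84 and -3.34 in heart and 6.65, 7.28 and 6.41 in kidney, at least 1624-fold higher. Cldn2, the claudin of leaky junctions, was below background in heart and at least 2386-fold higher, Prss8, the protease prostasin, at least 1857-fold, and Epcam, an adhesion molecule, 19.6-fold. Krt18 was not called. With genotype and slide as terms over all 12 arrays 14 of the list were called, and 9 on slide 3 alone. Genes of the primary cilium and of cystic kidney disease were higher in kidney for 14 of 15, but only 2 at least 8-fold, with a median of -1.32. Pkhd1, fibrocystin of recessive polycystic disease, was at least 1287-fold higher in kidney. The genes of dominant polycystic disease split: Pkd2, a calcium channel, read 1.64, 1.58 and 1.34 in heart and 3.73, 4.01 and 3.51 in kidney, 4.68-fold higher in kidney, whereas Pkd1, its receptor-like partner, read 1.11, 1.12 and 1.13 and -0.35, -0.37 and -0.31, 2.76-fold higher in heart. The arrays of the tissues did not overlap for either gene.

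Podocyte and glomerulus genes did not share a direction. Of 22 tested, 9 were higher in kidney, 8 higher in heart and 5 not called, shares near those over all genes, with a median of -0.03. Nphs1, nephrin of the slit diaphragm, stood with the kidney: it read -8.43, -8.82 and -7.93 in heart, below background, and -0.09, -0.74 and 0.03 in kidney, at least 91.9-fold higher. So did collagen chains of the glomerular basement membrane, Col4a3 by 16-fold and Col4a4 by 21.3-fold. Other members stood with the heart: Lamb2, laminin beta 2, read 3.59, 3.70 and 4.22 in heart and 0.95, 0.82 and 1.04 in kidney, 7.48-fold higher, and Plce1, a phospholipase C, was 5.37-fold higher. Tcf21, which the epicardium uses too, was 2.69-fold higher in heart, Nes, nestin, 2.64-fold, and Podxl, podocalyxin, which coats endothelium as well, 1.83-fold.

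In energy metabolism, the listed subunits of the respiratory chain differed by small amounts, as far as saturated spots let this be read. The list holds Cox4i1 but leaves out the other subunit forms that are read as pairs below. Among these, Cox6a2 and Cox8b were at least 688-fold and at least 18.7-fold higher in heart, and Cox8a at least 1.69-fold higher in kidney. Of 70 subunits of oxidative phosphorylation, 23 were higher in heart, 0 higher in kidney and 47 not called. Of the 23, 0 reached 8-fold, the list's median was 0.27, and 16 of the 70 were saturated in both tissues and so have no fold. Others that were not called, such as Ndufa5 and Atp5j2, were saturated on all 3 hearts but on 0 kidneys. For these a higher level in heart could not be fully measured, so the median may be too low. Ndufs6, a complex I subunit, read 6.49, 6.45 and 6.82 in heart and 5.47, 5.82 and 5.55 in kidney, 1.96-fold higher. Only 5 of the 70 were called higher in heart on the arrays labelled knockout, 2 with genotype and slide as terms, and 0 on slide 3.

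Fatty acid oxidation genes were split, with 17 of 39 higher in heart, 10 higher in kidney and a median of 0.01. On the heart side were Cpt1b, the muscle form of the enzyme that admits fatty acids to mitochondria, by 13.2-fold, Pdk4, which shuts off pyruvate oxidation, by 13.4-fold, and Ucp3, a mitochondrial carrier of muscle, by 16.4-fold. On the kidney side were Ehhadh, a peroxisomal enzyme, by 42.8-fold, Slc22a5, the carnitine carrier, by 10.8-fold, and Slc27a2, a long-chain acyl-CoA synthetase of the tubule. Slc27a2 read 0.09, -6.90 and -3.17 in heart and 6.67, 7.28 and 6.52 in kidney, with heart a far above the other hearts; its difference of -10.15 became -11.86 without heart a and -8.36 without heart b. On slide 3 alone 9 of the list were called higher in heart.

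Glycolysis and glucose use had more genes higher in heart, and glucose production more genes higher in kidney. Of 24 glycolysis genes, 14 were higher in heart, 6 at least 8-fold, and 4 higher in kidney, with a median of 0.81 (1.35 with bounds). Pygm, muscle glycogen phosphorylase, was 132-fold higher in heart, Hk2, the insulin-regulated hexokinase, 32-fold, and Pfkm, muscle phosphofructokinase, 11.2-fold, while Slc2a1, the glucose carrier of most cells, was 2.46-fold higher in kidney. The heart count was 9 on the arrays labelled knockout and 8 on slide 3. Of 18 genes for making glucose, using fructose or making ammonia, 17 were higher in kidney, 12 at least 8-fold, with a median of -4.14; 11 were called on slide 3. G6pc, glucose-6-phosphatase, read -7.45, -6.62 and -6.73 in heart, above background on 2 arrays, and 5.75, 5.76 and 5.42 in kidney, 6103-fold higher. Fbp1, fructose bisphosphatase, read -4.45, -4.87 and -5.74 and 6.26, 6.83 and 6.14, at least 2752-fold higher, and Ggt1, which feeds glutamate from glutathione, was at least 6085-fold higher. Pck2, the mitochondrial PEP carboxykinase, was the 1 member higher in heart, by 1.34-fold, and lost its call when an array was left out. Pck1, the cytosolic form, named here after its values were seen, read 4.66, -0.54 and 1.61 in heart and 6.88, 7.23 and 6.63 in kidney, 32.2-fold higher, with heart a nearest to the kidneys.

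Of 16 genes for ketone bodies and branched chain amino acids, 9 were higher in kidney and 2 in heart, with a median of -0.77. The kidney count fell to 5 with genotype and slide as terms and to 2 on slide 3. Mccc1, a subunit of the leucine-degrading carboxylase, was 4.29-fold higher in kidney. In the phosphocreatine system, Ckm, muscle creatine kinase, read 4.95, 5.25 and 5.83 in heart and -8.85, -8.20 and -9.09 in kidney, below background, and was at least 3953-fold higher. Its mitochondrial partner Ckmt2 was at least 8149-fold higher. The enzyme that begins creatine synthesis, Gatm, stood on the other side, 35.8-fold higher in kidney, and Gamt, which completes it, was 2.22-fold higher there. The list of 11 gave 3 higher in heart and 6 in kidney.

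Amino acid and xenobiotic enzymes were higher in kidney for 44 of 50, 37 at least 8-fold, with a median of -4.41. Akr1c21, a steroid reductase, was at least 12334-fold higher, Miox, which opens the inositol ring, at least 7389-fold with 2 hearts above background, and Hao2, a peroxisomal hydroxyacid oxidase, at least 5372-fold. Higher in heart were Aldh1a1, a retinaldehyde dehydrogenase, by 4.88-fold and Gsta4, which clears lipid peroxidation products, by 4.31-fold. Peroxisome genes were higher in kidney for 16 of 22 but 0 at 8-fold or more, with a median of -0.82. Cat, catalase, was 3.88-fold higher in kidney and Abcd3, a peroxisomal fatty acid carrier, 3.71-fold. The kidney count of the peroxisome list was 8 with genotype and slide as terms and 7 on slide 3.

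Pairs of genes for forms of a single enzyme or carrier were read side by side. Of 32 listed pairs, 30 had both genes tested, and in 14 both were called in opposite directions. In 4 both were called in the same direction, 9 had 1 gene called and 3 none. Over all genes, 32.3% were called higher in heart and 32.7% in kidney, and the pairs were listed for their known tissue forms. The counts are thus descriptions of this list. Cpt1b read 5.21, 5.06 and 5.99 in heart and 1.70, 1.71 and 1.67 in kidney, a difference of 3.73 ± 0.25, whereas Cpt1a, the liver form, read 1.69, 1.98 and 1.46 and 4.59, 4.89 and 4.43, a difference of -2.93 ± 0.19. Cox8b, a muscle form of a cytochrome c oxidase subunit, read 6.67, 6.30 and 6.83 in heart, saturated, and 2.17, 2.02 and 2.94 in kidney, at least 18.7-fold higher, while Cox8a was at least 1.69-fold higher in kidney, a call lost without heart b. Another muscle subunit, Cox6a2, was at least 688-fold higher in heart, while its partner Cox6a1 was saturated in both tissues and not called. Fxyd1, phospholemman, which brakes the sodium pump of myocytes, read 4.27, 4.36 and 4.84 in heart and -0.73, -1.44 and -0.67 in kidney, 43.4-fold higher. Fxyd2, the pump's gamma subunit in the tubule, read -1.37, -1.16 and -2.18 and 6.38, 6.66 and 6.24, 255-fold higher in kidney. Of the pyruvate kinases, Pkm was 3.55-fold higher in heart and Pklr 19.6-fold higher in kidney with 2 hearts above background.

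Further opposite pairs lay in glycolysis, purine synthesis, ion exchange and adhesion. Eno3, muscle enolase, was at least 78.3-fold higher in heart and Eno1 2.93-fold higher in kidney. Pgam2, muscle phosphoglycerate mutase, was at least 16.5-fold higher in heart and Pgam1 2.99-fold higher in kidney. Adssl1, the muscle enzyme that makes adenylosuccinate, was 10.6-fold higher in heart and Adss 4.75-fold higher in kidney. In the anion exchangers Slc4a3 was 70.7-fold higher in heart and Slc4a1, which red cells and intercalated cells use, 7.86-fold higher in kidney. The creatine kinases gave Ckb 1.5-fold higher in kidney, a call lost without heart a, and the cadherins gave Cdh1 at least 6.36-fold higher in kidney. Slc2a4, the insulin-regulated glucose carrier, was 7.04-fold higher in heart. Slc2a2, the carrier of the proximal tubule, was 299-fold higher in kidney, and with any 1 heart left out another of its probes became the brightest, at -12.16 to -12.35. Some pairs shared a direction: hexokinases Hk2 and Hk1 were both higher in heart, by 32-fold and 1.74-fold, and so were Pfkm and Pfkl, by 11.2-fold and 1.77-fold. The lactate dehydrogenases Ldha and Ldhb were not called, Ldhb being saturated in both tissues.

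**Figure D3:**
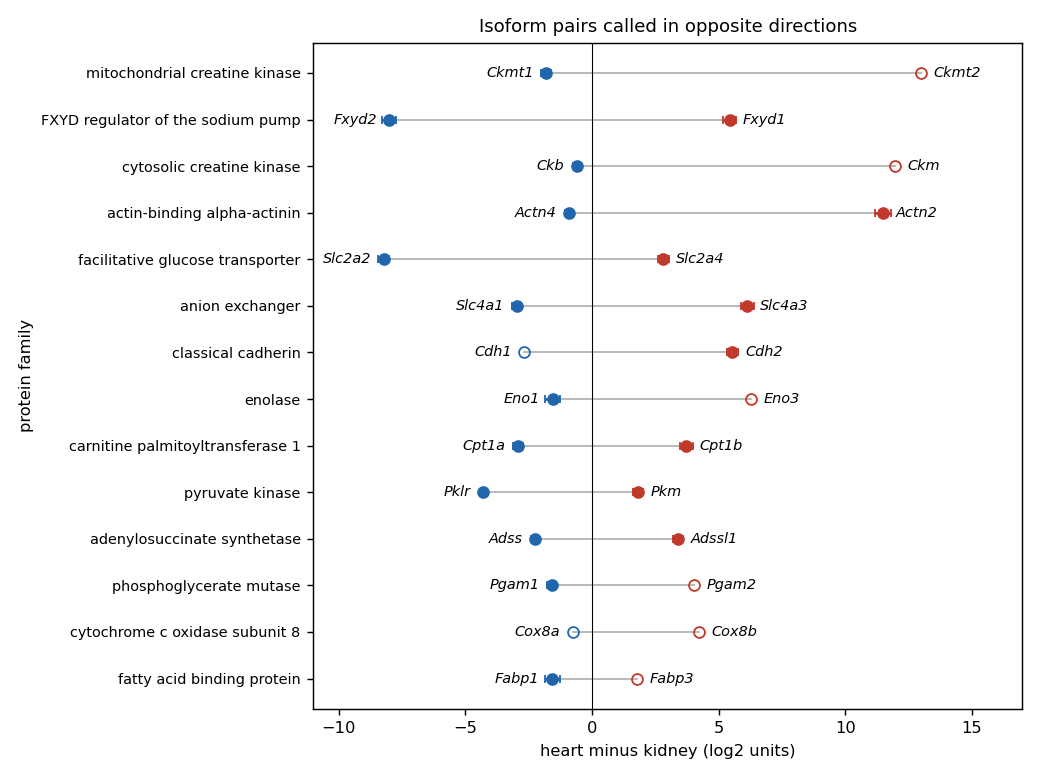
Heart minus kidney difference on the log2 scale (horizontal axis) for both genes of the 14 pairs called in opposite directions, with a line joining each pair. Ckm and Ckmt2 have the farthest heart members, while Fxyd2 and Slc2a2 have the farthest kidney members, at -8.00 and -8.22.

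Among genes in none of the lists or pairs, Mb, the oxygen store myoglobin, read 6.87, 6.54 and 7.06 in heart, saturated, and -8.60, -6.72 and -5.91 in kidney, above background on 1 array. It was at least 8715-fold higher in heart, at a fitted difference of 13.90 ± 0.63 that became 13.13 without kidney a. Xirp2, an actin-binding protein of the intercalated disc, was at least 2844-fold higher and Lrrc10, a cardiac leucine-rich protein, at least 1878-fold. Also among the 10 largest were Hspb7, a small heat shock protein of muscle, by 1844-fold, Cavin4, a muscle caveolar protein, by at least 1787-fold, and Myo18b, an unconventional myosin of striated muscle, by 1730-fold. The fold of Myo18b is that of its brightest probe, and its other probe did not share the sign. In kidney, Dnase1, a secreted nuclease, read -8.60, -7.11 and -6.38 in heart, above background on 1 array, and 6.51, 7.11 and 6.38 in kidney, saturated, at least 10080-fold higher, with a difference of -13.41 without heart a. Acsm2, a medium-chain acyl-CoA synthetase, was below background in heart at -8.57, -8.97 and -8.83 and read 6.64, 7.07 and 6.46 in kidney, at least 11725-fold higher. Pdzk1, a brush border scaffold for carriers, was at least 8882-fold higher, Ugt3a1, a glycosyltransferase, at least 8211-fold, and Bhmt2, a methyltransferase that makes methionine, at least 5192-fold. Sult1d1, a sulfotransferase, read -4.93, -8.78 and -8.91 in heart and 5.62, 6.15 and 5.50 in kidney. Its difference of -13.30 ± 1.01 was -14.60 without heart a, the highest of the hearts, and -12.68 without heart b.

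Marker genes of cell types that both organs contain were mostly higher in heart. Of 26 endothelial genes, 23 were higher in heart, 4 at least 8-fold, with a median of 2.11. Vwf, von Willebrand factor, read 5.98, 5.95 and 5.70 in heart and 0.12, 0.18 and 0.08 in kidney, 53.8-fold higher, and Meox2, a vascular homeobox factor, was 59.8-fold higher. Ehd3, which glomerular endothelium carries, was the 1 endothelial gene higher in kidney, by 2.76-fold. Of 30 fibroblast and matrix genes, 28 were higher in heart, 11 at least 8-fold, with a median of 2.74. Lum, the collagen-binding proteoglycan lumican, read 4.78, 4.85 and 4.52 in heart and -0.63, -0.15 and -0.41 in kidney, 34.6-fold higher, and Postn, periostin, was 24.4-fold higher. Timp3, a protease inhibitor, stood alone on the kidney side, by 5.28-fold. Smooth muscle and pericyte genes were higher in heart for 13 of 15, with Abcc9, a pericyte channel subunit, at 21.4-fold and Rgs5, a pericyte regulator of signalling, at 11.8-fold; on slide 3 the count was 8. Macrophage genes were higher in heart for 18 of 18, 8 at least 8-fold, with a median of 2.56, among them Lyve1, a hyaluronan receptor, by 25.6-fold and Cd163, a haemoglobin scavenger receptor, by 17.2-fold. The summed level of the macrophage list was 7.51 to 7.77 on the hearts and 5.26 to 5.67 on the kidneys.

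Markers of tissues that lie next to the organs, or that share their genes, were read on each array. The 7 mesothelial genes were each higher in heart, 5 at least 8-fold, with Msln, mesothelin, at 3.98, 4.35 and 4.63 in heart and -0.65, -0.41 and -0.91 in kidney. Upk3b, a uroplakin that mesothelium also carries, read 3.04, 3.03 and 3.05 in heart and -1.83, -2.88 and -2.003 in kidney, 38.7-fold higher in heart, whereas Upk3a of the urothelium was below background in heart and at least 103-fold higher in kidney. Of 9 urothelium genes, 7 were higher in kidney and 2 in heart. Of 8 liver genes tested, of 12 listed, 6 were higher in kidney and 2 in heart. Ahsg, the plasma protein fetuin A, read 3.40, 3.16 and 3.32 in heart and -5.32, -4.91 and -5.82 in kidney, 399-fold higher in heart. The summed level of the list was 3.22 to 3.48 on hearts, nearly all of it Ahsg, and 2.36 to 3.02 on kidneys. The liver count in kidney was 3 on the arrays labelled knockout and 2 on slide 3. The defining surfactant genes of lung were not tested, since they were not above background on all arrays of either tissue, and the airway genes Scgb3a2 and Scgb1a1 were high on heart a only, at 0.38, -5.51 and -5.76 and 0.26, -4.35 and -4.25 on hearts a, b and c. Napsa, a protease that lung and proximal tubule share, was at least 219-fold higher in kidney. The list summed to 2.25, -0.24 and 0.24 on hearts a, b and c and to 6.46 to 7.14 on kidneys, where nearly all of it was Napsa.

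Fast skeletal muscle and fat markers moved with heart a. Of 11 skeletal muscle genes tested, 7 were higher in heart, 1 in kidney and 3 not called. Tnnc2, fast troponin C, read 4.30, -3.79 and -3.51 in heart against -5.63, -4.95 and -5.62 in kidney and was not called, but passed at 1.75 without heart a and at 5.79 without heart b. Tnni2, fast troponin I, read 4.14, -0.15 and -0.23 against -3.34, -2.94 and -3.46 and was called at 4.50, or 3.06 without heart a. Tnnt3 read 1.83, -4.63 and -4.42 in heart, was not called, and passed at 1.41 without heart a. Myh8 and Myh4, whose probes can share near-identical myosin sequence with Myh6, were high on all 3 hearts, by at least 4503-fold and at least 2252-fold, and are uncertain for that reason. The summed level of the skeletal muscle list was 6.81 to 7.47 on hearts and 0.93 to 1.45 on kidneys. On hearts it drew mostly on Myh8, Ckm, Myh4 and Atp2a1, each highest on heart c, so it does not follow the fast troponins. Of 9 fat genes 0 were called in limma; Adipoq, adiponectin, chosen after its values were seen, read 4.82, 0.65 and 1.98 in heart and 3.83, 3.50 and 3.94 in kidney, so that the kidneys lay between heart a and the other hearts. The fat list summed to 8.21 on heart a, 5.01 on heart b and 6.20 on heart c, and to 6.67 to 7.30 on kidneys. The part of these markers in other results was not tested. Myh6, Tnnt2 and Csrp3 read between hearts b and c on heart a. They were saturated on all 3 hearts, so that order does not measure their level.

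**Figure D4:**
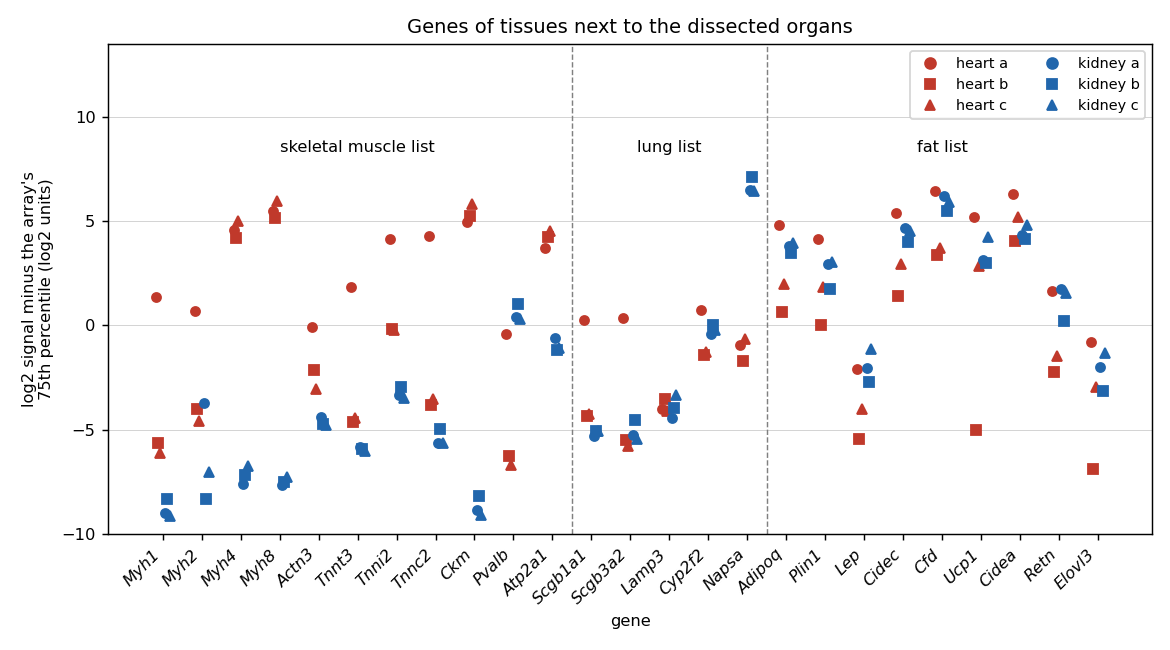
Log2 intensity relative to each array's 75th percentile (vertical axis) of skeletal muscle, lung and fat genes on the 6 wild type arrays, for each gene (horizontal axis), 1 point per array. Heart a stands above hearts b and c, for example Tnnc2 at 4.30 against -3.79 and -3.51.

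Genes that most cells use served as a comparison. Of 17 housekeeping genes, 10 were not called, 6 were higher in kidney and 1 in heart, with a median of -0.30. Among those not called, Rplp0 and Rps18 were saturated on every array, so a difference could not be measured for them. Of 42 ribosomal protein genes, 34 were not called and 8 were higher in heart, with a median of 0.10, and of 31 proteasome genes 26 were not called. These counts shifted with the scaling: the ribosomal count was 4 with median scaling and 15 with quantile normalization, against a shift of the median of all genes to -0.08 and 0.051, and it ranged from 4 to 18 with an array left out.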

How the data were processed

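Total RNA was labelled with Cy3 by linear amplification and hybridised to 1-colour Agilent mouse arrays, per the labels' protocols. The authors deposited the scanner files, whose processed intensity values, per the file headers, come from Feature Extraction 9.5.3.1 with probes placed on mm7; the submitters' processing notes name version 9.1. Their deposited value table was centred within each tissue and was not used here. Control spots and flagged outlier spots were left out, spots of a probe were averaged, and log2 values were set relative to each array's 75th percentile. Each gene took its probe of highest mean, and a gene entered the test where 1 tissue or both had that probe well above background on each of the 3 arrays. Heart and kidney were compared with limma 3.58.1 in R 4.3.3 (lmFit, eBayes, Benjamini-Hochberg threshold 0.05), which was first tested on simulated data; 3 tested genes lacked a value on an array. Gene names came from RefSeq by accession for 22951 probes, symbol for 6659 and synonym for 3109, and 8455 kept the file's name. Promoters were RefSeq entries of GRCm38.p6, found for 12095 tested genes.

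Members and lists were chosen with earlier results of these data known. The genes named are the 4 markers, the 15 largest differences each way, the 10 largest in no list or pair, up to 5 called members per direction and 3 uncalled members of each list, and all pair, Hox and nucleoside genes; a few that these rules would name are not reported here. Named beyond that, after their values were seen, for their textbook roles, were Actc1, Adipoq, Aqp1, Aqp2, Avpr2, Cubn, Cyp24a1, Cyp27b1, Egf, Epcam, Gata4, Gja1, Lrp2, Pax8, Pck1, Podxl, Pth1r, Scgb1a1, Scnn1b, Scnn1g, Slc12a3, Slc5a2 and Vdr. Alternatives covered scaling, background, filters, probe choice, slide, genotype and each array left out. Same-letter hearts and kidneys did not deviate together, with correlations of 0.035, -0.015 and -0.054. Precision is limited by the 3 arrays per tissue.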

Additional observations from a re-analysis of the deposited data

Results flagged for a closer look

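The heart minus kidney difference was compared between the wild type and the knockout arrays by an interaction term in limma, and 112 of 17984 genes differed at an adjusted p under 0.05 (2606 at an unadjusted p under 0.05). Of the 416 genes named by the rule, 7 differed. The blood clotting protein gene Fgg had a difference of -6.88 in wild type and -3.28 in knockout arrays, a change of 3.60 (adjusted p = 0.0145), and the lipoprotein gene Apoc3 went from -5.85 to -2.45, a change of 3.40 (adjusted p = 0.023). Fbp1 of glucose synthesis moved from -11.43 to -8.03, a change of 3.40 (adjusted p = 0.00947). Fgg and Fbp1 were above background on all 3 wild type and all 3 knockout hearts, and Apoc3 on 1 and 3. For the other 4 genes the wild type heart readings were below background on each array, so the fitted changes and their p do not measure a change in the difference between the tissues. These were 3.22 for Bhmt2 (adjusted p = 0.000469) and 2.995 for Ugt3a1 (adjusted p = 0.00321), both above background on 3 knockout hearts, 2.54 for Kap, an androgen-regulated protein of the proximal tubule (adjusted p = 0.00515), above background on 2, and -1.91 for Psca, a surface antigen of the urothelium list (adjusted p = 0.023), above background on 0. All 7 were higher in kidney in both genotypes, as far as the signs of the fitted differences go. The wild type hearts and the knockout hearts lay on different slides. Mean readings of liver and thymus markers were also higher on knockout than on wild type hearts. Alb read 0.59 against -2.97 and Dntt 2.88 against -5.14, while Ahsg did not rise, at 3.18 against 3.29. Whether slide or such tissue had a part was not tested.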

How the results depend on the processing

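Counts of genes at an adjusted p under 0.05 were 5173 in heart and 5686 in kidney with median scaling, 6291 and 5724 with quantile normalization and 4834 and 5379 with normexp background, and the heart share of calls lay between 47.3% and 52.4% over all settings. With normexp the counts at 8-fold were 466 and 774, and with a filter on all 6 arrays, which drops genes dim in a tissue, 633 and 731; with that filter the kidney count was 17 instead of 32 for the proximal tubule, 10 instead of 23 for the thick limb and distal tubule, 14 instead of 29 for the collecting duct and 14 instead of 22 for Hox genes, and the heart count was 10 instead of 17 for calcium handling. Arrays labelled knockout gave 5040 and 4687, with 8319 of the 11676 wild type calls in the same direction, 55 reversed, and 2212 of 2456 at 8-fold kept. Genotype and slide as terms over all 12 arrays gave 3748 and 3635, and slide 3 alone 2774 and 2978; both were chosen after seeing the data. With the replicate block on the letters, which the labels do not tie to a mouse, counts were 5511 and 5466. Leaving out each array in turn gave 5119 to 6019 in heart, 5093 to 5855 in kidney, and 1078 to 1130 and 1335 to 1405 at 8-fold. Of the 416 named genes, 21 lost and 23 gained a call when an array was left out.

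Among the 416 named genes, differences that changed sign and were called in the wild type comparison or under the alternative, the cause of which was not tested, were these. With genotype and slide as terms: Synpo -1.004, Krt5 1.71, Dbp 3.66, Ciart 4.79, Nfil3 -0.70, F2 2.54, Cd4 1.32, Per2 2.22, Pfkl -0.043, Atp5k -0.028, Arntl -1.49, Slco1a4 -0.34, Alb 0.73 and Fabp1 2.06. With genotype as a covariate: Ciart 0.93 and Cd4 0.16. On arrays labelled knockout: Slco1a4 -0.098, Per2 0.63, Nfil3 -0.56, Krt5 1.24, Alb 0.51, Synpo -0.69, Bcat2 -0.17, Cd4 1.27, Fabp1 0.94, Ciart 2.56, Cd8a 5.87, Dntt 7.84 and F2 0.99. With the mean of probes: Ndufv3 -0.95, Hbb-bt 0.79, Rpl34 0.37 and Rps6 -0.38. On slide 3: Cd8b1 5.72, Cd4 1.14, Slc29a1 -0.54 (those hearts lack the gene by genotype), Fabp1 2.74, Alb 1.31, Krt5 1.84 and F2 2.75. Saturated spots and spots below background limit folds to bounds for 1305 genes and leave 68 without a fold.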

Other observations

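Genes for nucleoside transport and adenosine signalling, the pathway of the gene that the study removed, were unequal in wild type organs. Of 13 tested, 7 were higher in heart, 3 in kidney and 3 not called, with a median of 0.79. Slc29a1, which encodes mENT1, read 3.05, 3.13 and 3.25 in heart and 1.48, 1.23 and 1.60 in kidney, 3.27-fold higher in heart (limma, adjusted p = 4.52e-05), and the arrays of the tissues did not overlap. Slc28a2, a concentrative purine nucleoside carrier, read 1.64, 1.59 and 1.63 and -4.06, -4.64 and -3.72, 54.3-fold higher in heart. Slc29a3, a nucleoside carrier of lysosomes, read -4.97, -5.04 and -5.32 and -1.45, -1.93 and -0.92, 12.8-fold higher in kidney. Of the adenosine receptors, Adora2a was 4.38-fold and Adora1 2.44-fold higher in heart, and Adora2b 2.35-fold higher in kidney. Entpd1, which removes phosphates from extracellular ATP, was 7.48-fold higher in heart, and Nt5e, which makes adenosine from AMP, 2.59-fold higher in kidney. The heart count was 4 on the arrays labelled knockout, 4 with genotype and slide as terms and 3 on slide 3.

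Of 19 circadian clock genes, 7 were higher in heart, 5 higher in kidney and 7 not called, shares near the 32.3% and 32.7% over all genes. Arntl, the activator BMAL1, read -0.41, -0.26 and -0.20 in heart and -2.04, -2.51 and -1.51 in kidney, 3.31-fold higher in heart, but its difference was -1.49 with genotype and slide as terms. The output factor Hlf read 0.83, 0.57 and 0.56 and 3.15, 3.42 and 2.94, 5.73-fold higher in kidney. The heart count was 3 on the arrays labelled knockout and 2 on slide 3, and the hour at which organs were taken is not given in the sources used here.

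Among other cells, 5 of 8 blood cell genes were higher in heart, with Ppbp of platelets at 18.7-fold, Alas2 of red cells at 16.6-fold and Pf4 of platelets at 14.8-fold, while of the haemoglobin genes, neither of them called, Hbb-bt was saturated on all 6 arrays and Hba-a1 on 3 hearts and 1 kidney, so that a difference between the tissues could not be fully measured. Nerve and Schwann cell genes were higher in heart for 7 of 8, with a median of 1.62, and the count was 3 with genotype and slide as terms. Of 12 thymus and lymphocyte genes, 7 were higher in heart and 2 in kidney, where Cd8b1, a T cell coreceptor chain, was 11.1-fold higher on its brightest probe and the other did not share the sign. Of 5 adrenal cortex genes tested, 1 was higher in heart, 3 were higher in kidney and 1 was not called. Star, which carries cholesterol into steroid-making mitochondria, read -2.37, -2.24 and -2.50 in heart and -6.04, -5.71 and -5.73 in kidney, 11-fold higher in heart, while the adrenal enzymes Cyp11a1, Cyp11b1 and Cyp21a1 did not pass the filter on low values or were not measured here. In kidney, Akr1b7, an aldo-keto reductase, was at least 16.2-fold higher, Mc2r, the corticotropin receptor, 1.57-fold and Hsd3b1, a steroid dehydrogenase, 1.44-fold. The call of Mc2r was lost without heart b, heart c, kidney a or kidney c, at -0.51 to -0.67, and that of Hsd3b1 without any 1 array but heart c, at -0.375 to -0.60.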
